A study of Xenopus laevis with 96 samples.

Results

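The genes described here are the homeologs cyp26c1.L (Xelaev18034595m.g) and cyp26c1.S (Xelaev18036885m.g), the copies of cyp26c1 on the long and the short subgenome of the allotetraploid frog Xenopus laevis. They were chosen by symbol, and are 2 of 31430 genes in the count table. The study exposed whole embryos for 2 h to 10 nM all-trans retinoic acid (RA), to 50 μM 4-diethylaminobenzaldehyde (DEAB), to 0.5% ethanol or to no agent, washed them, and followed their recovery. Each of 6 clutches (A to F) came from a single wild-type female and was divided over all 4 groups and sampled 0, 1.5, 3 and 4.5 h after the exposure ended, which made 96 libraries of 1 clutch, group and time each. RA and DEAB stocks were made in dimethyl sulfoxide, and no label gives that solvent to the control embryos. Each library pooled 5 to 10 embryos. The label was stage 10.25 for all clutches at 0 h, then stage 11 or 11.5, stage 11.5 or 12, and finally stage 12 or 12.5, with the same stage in all 4 groups of a clutch, so the series spans gastrulation. Clutches had been admitted to sequencing after a qPCR check of the answer of RA target genes, cyp26a1.L among them, to the treatments, so the libraries are not a random draw of clutches.

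RA is made from retinol by way of retinaldehyde and acts through nuclear receptors on target genes, among them hox genes of the hindbrain and trunk. The CYP26 enzymes are cytochrome P450 proteins that oxidise RA and so end its action, and the genes for some of them are themselves switched on by RA, which makes them a negative feedback arm of the pathway. Cyp26c1 is known from mouse and zebrafish embryos for its expression in the head and hindbrain, where CYP26 activity keeps anterior tissue low in RA. DEAB inhibits the retinaldehyde dehydrogenases that make RA, and the paper chose its dose for a partial inhibition.

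The library totals had a median of 11691899.5 counts (lowest 5528562, highest 15869722), and no library pair of a group was identical among 240 pairs. All symbols of the marker lists of neural plate, epidermis, organizer and mesoderm that were found in the table reached a mean of 1 CPM (counts scaled to library size with the TMM factors of all 96 libraries) at some time in control. Symbols come from a table without the genes of low expression, so this is no independent check of the tissue. The counts behind the cyp26c1 levels were low at the start. At 0 h a library held 2 to 50 counts of cyp26c1.L and 2 to 52 of cyp26c1.S, against 257 to 2145 and 231 to 2066 at 4.5 h.

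Over normal gastrulation both homeologs went from nearly silent to clearly expressed. In the control libraries cyp26c1.L lay between 0.187 and 1.48 CPM at 0 h (median 0.725), between 2.57 and 9.40 at 1.5 h (median 5.57), between 18.7 and 54.3 at 3 h (median 35.6) and between 44.0 and 106 at 4.5 h (median 72.4). The S copy had control levels of 0.312 to 1.72 CPM at 0 h (median 0.801), 0.430 to 7.0 at 1.5 h (median 2.74), 11.7 to 41.3 at 3 h (median 24.5) and 37.0 to 68.6 at 4.5 h (median 60.6). No 4.5 h library of either gene was as low as any 0 h library. In bulk embryos a gene turned on in more cells and a gene turned up within each cell cannot be told apart.

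Every step of the control series passed the test for both homeologs (edgeR quasi-likelihood test, clutch as a block, Benjamini-Hochberg adjustment over all genes tested, threshold 0.05). From 0 to 1.5 h cyp26c1.L rose by a log2 fold change of 2.81 ± 0.32 (SE, n = 6 clutches, adjusted p 7.94e-07 by edgeR) and cyp26c1.S by 1.93 ± 0.42 (adjusted p 0.000785 by edgeR). The next step, to 3 h, was 2.74 ± 0.22 for L and 3.08 ± 0.30 for S, and the last step, to 4.5 h, was 1.14 ± 0.19 and 1.23 ± 0.25. Over the whole 4.5 h the rise was 104-fold for L (95% interval 69.9 to 155) and 75.7-fold for S (45.5 to 126). Rises over time were common among all genes: 23.8%, 23.8%, 21.9% and 39.6% of the 20295 genes tested were called higher in these 4 comparisons, and 22.6% had groups that did not overlap and were higher at 4.5 h than at 0 h. By rank of p over the whole period, cyp26c1.L was 151st and cyp26c1.S 1192nd.

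**Figure D1:**
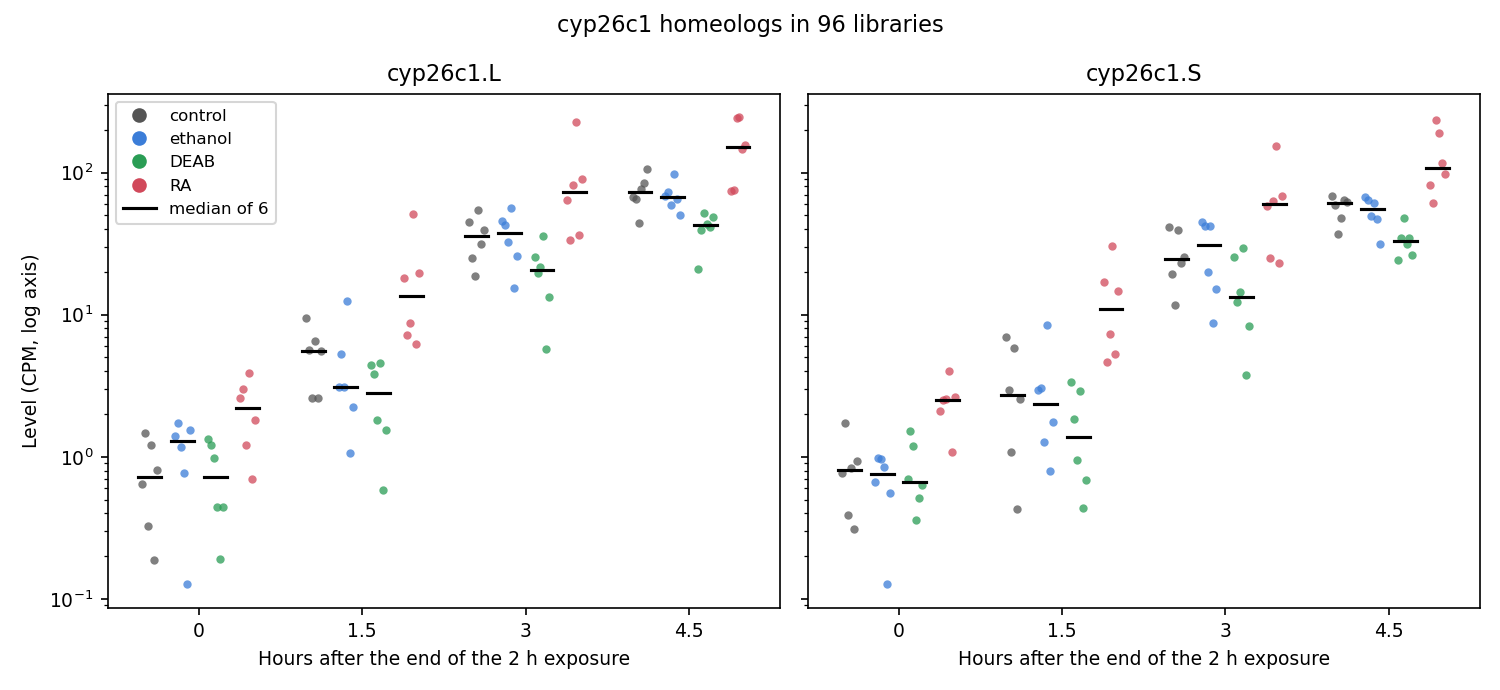
Levels of cyp26c1.L (left) and cyp26c1.S (right) in CPM on a log axis against hours after the exposure, with 1 point per library, coloured by group, and a black bar at the median of 6 clutches. Control medians climb from 0.725 to 72.4 CPM for L and from 0.801 to 60.6 for S, RA libraries lie highest at each time by median, and DEAB medians lie below control from 1.5 h on.

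Added RA raised both homeologs at the end of the exposure and 1.5 h later. At 0 h cyp26c1.L stood at 0.699 to 3.89 CPM in the RA libraries (median 2.20) and cyp26c1.S at 1.08 to 4.04 (median 2.52). Their ranges overlapped those of control, but within its own clutch the RA library was the higher in 6 of 6 clutches for both genes. The log2 fold change was 1.50 ± 0.28 for L (2.83-fold, adjusted p 0.0209 by edgeR) and 1.60 ± 0.28 for S (3.03-fold, adjusted p 0.0132 by edgeR), where 0.31% of the 19376 genes tested were called higher. The count of calls in either direction was 104, and 17 without clutch D and 541 without clutch C. The 0 h calls need nearly all the clutches. For cyp26c1.L the adjusted p of edgeR went to 0.0946 without clutch A (log2 fold change 1.39), 0.0607 without D (1.44), 0.0891 without E (1.47) and 0.0589 without F (1.57). For cyp26c1.S it went to 0.063 without A (1.64), 0.0591 without D (1.43), 0.0616 without E (1.59) and 0.0589 without F (1.63).

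At 1.5 h the RA libraries held 6.18 to 51.3 CPM of cyp26c1.L (median 13.5) and 4.65 to 30.4 CPM of cyp26c1.S (median 11.0). The highest value of both was in clutch D. The rise was 1.61 ± 0.26 on the log2 scale for L (3.04-fold, adjusted p 0.00263 by edgeR) and 2.05 ± 0.24 for S (4.13-fold, adjusted p 0.000192 by edgeR), again in 6 of 6 clutches. By p the S copy ranked 6th of 19543 genes and the L copy 31st, and 0.548% of genes were called higher. Both calls held when any single clutch was left out. With edgeR without the clutch block no RA call against control passed. The single fit of 72 libraries, and limma on the deposited log2 values with no clutch block, kept cyp26c1.S at 1.5 h as the sole call.

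At 3 and 4.5 h the RA libraries had higher medians than control, without passing the threshold. At 3 h cyp26c1.L was at 33.4 to 227 CPM (median 72.5) and cyp26c1.S at 23.1 to 154 (median 60.5), with log2 fold changes of 1.09 ± 0.24 and 1.13 ± 0.26 (adjusted p 0.0765 and 0.0825 by edgeR). At 4.5 h L was at 74.3 to 246 CPM (median 151) and S at 61.3 to 235 (median 107), with log2 fold changes of 0.95 ± 0.21 and 1.05 ± 0.23 (adjusted p 0.162 and 0.16 by edgeR). In all of these the RA library exceeded its control in 6 of 6 clutches, other than S at 3 h with 5 of 6. At 3 h 0.155% of all genes were called higher and at 4.5 h 0%. The 4.5 h comparison called 0 of 19750 genes with edgeR, although 1458 had an unadjusted p under 0.05 and DESeq2 called 31 genes. Without clutch B, cyp26c1.L at 3 h passed (1.204, adjusted p 0.0477 by edgeR). With no filter on low counts both genes passed at both times, as given in the closing section.

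Whether the RA effect changed over the recovery was tested as an interaction over the 72 control, RA and DEAB libraries. That fit takes off the clutch but does not pair the libraries of a clutch and time, so shifts of a clutch at a time enter its error. Neither homeolog passed at any time. The RA effect at 4.5 h minus that at 0 h was -0.49 ± 0.69 for cyp26c1.L (95% interval -1.87 to 0.88) and -0.48 ± 0.67 for cyp26c1.S (-1.82 to 0.85), and both intervals hold 0 as well as a loss of the whole 0 h effect. The 1.5 h and 3 h effects differed from the 0 h effect by 0.09 and -0.37 for L and 0.35 and -0.44 for S. In the RA interactions at 1.5, 3 and 4.5 h edgeR called 0%, 0% and 0.00453% of 22092 genes, where 281 to 630 genes had an unadjusted p under 0.05 and DESeq2 called 0 to 2. Clutches were also counted by their difference in log2 CPM, with a prior count of 2. The RA difference of S was larger at 1.5 h than at 0 h in 6 of 6 and smaller at 3 h than at 1.5 h in 6 of 6. That of L was larger in 3 of 6 and then smaller in 4 of 6. The prior count draws differences at the low counts of 0 h toward 0. As plain ratios of CPM, S in clutch A went down from 2.72 at 0 h to 2.44 at 1.5 h, and L in clutch C from 3.70 to 3.39.

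Under DEAB cyp26c1 was near its control level at the end of the exposure and had lower medians from 1.5 h on, with no call. At 0 h DEAB libraries held 0.192 to 1.32 CPM of cyp26c1.L (median 0.716) and 0.357 to 1.53 CPM of cyp26c1.S (median 0.662), and the log2 fold changes were 0.07 ± 0.33 (95% interval -0.63 to 0.77) and 0.04 ± 0.33 (-0.67 to 0.74). A DEAB library of 0 h held 3 to 21 counts of cyp26c1.L and 4 to 20 of cyp26c1.S. Clutches were split, with L higher under DEAB in 3 of 6 and S in 2 of 6. In the same libraries 1.21% of genes were called lower, a share that hung on single clutches: 460 genes were called in either direction, but 0 without clutch D and 2563 without clutch C.

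At 1.5 h the DEAB range was 0.586 to 4.55 CPM for cyp26c1.L (median 2.82) and 0.440 to 3.35 for cyp26c1.S (median 1.39). At 3 h it was 5.71 to 36.1 for L (median 20.7) and 3.75 to 29.6 for S (median 13.3), and at 4.5 h 20.9 to 51.8 (median 42.7) and 24.4 to 48.2 (median 32.9). DEAB and control ranges overlapped at each of these times. The log2 fold changes lay between -0.98 and -0.85: for L -0.98 ± 0.32, -0.89 ± 0.27 and -0.92 ± 0.22 at 1.5, 3 and 4.5 h, and for S -0.89 ± 0.32, -0.89 ± 0.28 and -0.85 ± 0.24. None passed the threshold of edgeR, with adjusted p from 0.087 (L at 4.5 h) to 0.566 (S at 1.5 h), although every 95% interval lay below 0. DEAB libraries were the lower in 6 of 6 clutches for L at 1.5 h and in 5 of 6 in the other comparisons. Genes called lower were 0%, 0.0206% and 0.253% of those tested at 1.5, 3 and 4.5 h. At 1.5 h edgeR called 0 genes in either direction, with 1514 at an unadjusted p under 0.05, and DESeq2 also called 0.

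The DEAB outcome at 4.5 h depended on clutch C. It was the sole clutch in which cyp26c1.L and cyp26c1.S were both higher under DEAB than in control at 3 and 4.5 h. Without it the 4.5 h log2 fold change was -1.10 for L (adjusted p 0.00387 by edgeR) and -1.05 for S (adjusted p 0.0124 by edgeR). Over all genes 290 were then called in either direction, against 52 with clutch C in the fit. The control library of clutch C was the lowest of the 6 for both genes at 3 and 4.5 h. The change of the DEAB effect from 0 h lay between -1.06 and -0.85 on the log2 scale, with -0.96 ± 0.82 for L and -0.85 ± 0.79 for S at 4.5 h, and was not called. The 3 DEAB interactions called 0%, 0% and 0% of genes with edgeR, with 358 to 980 at an unadjusted p under 0.05, and 0 with DESeq2. Within clutches the DEAB difference in log2 CPM (prior count 2) fell between 0 and 1.5 h in 6 of 6 for S and in 5 of 6 for L. For S in clutch D that fall hung on the prior count. There the plain ratio of DEAB to control CPM rose from 0.429 to 0.497, from 4 DEAB and 11 control counts at 0 h.

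Between the embryos exposed to RA and those exposed to DEAB, cyp26c1 differed at all 4 times. The log2 fold change of RA over DEAB for cyp26c1.L was 1.43 ± 0.28, 2.59 ± 0.28, 1.98 ± 0.26 and 1.87 ± 0.22 in the order of the samplings (adjusted p 0.0201, 1.07e-05, 0.000474 and 0.000397 by edgeR). That of cyp26c1.S was 1.56 ± 0.28, 2.94 ± 0.26, 2.02 ± 0.27 and 1.90 ± 0.24 (adjusted p 0.00993, 2.12e-06, 0.00052 and 0.000647 by edgeR). The ratio was thus largest at 1.5 h, with 6.01-fold for L (95% interval 4.04 to 8.96) and 7.67-fold for S (5.24 to 11.2). RA was the higher in 6 of 6 clutches at all 4 times. At 1.5 and 4.5 h the libraries of RA and DEAB did not overlap for either gene, which was so and higher for 0.113% and 0.0911% of all genes, and at 0 and 3 h they overlapped.

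Among all genes 0.439%, 0.982%, 0.887% and 0.724% were called higher under RA than DEAB at the 4 times. At 4.5 h cyp26c1.L had the 2nd smallest p of 19750 genes in this comparison and cyp26c1.S the 6th. The 0 h call of cyp26c1.L went without clutch A, B, D, E or F (log2 fold change 1.59, 1.46, 1.14, 1.40 and 1.34, adjusted p 0.057 to 0.175 by edgeR), and that of cyp26c1.S without A, D or F (1.56, 1.28 and 1.47, adjusted p 0.0651, 0.0688 and 0.0805 by edgeR). The later calls held without any single clutch. Without the clutch block the 4.5 h calls of both genes held and those at 0, 1.5 and 3 h did not.

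Whether RA moved cyp26c1 further than DEAB did, at the doses used, was tested by a sum. The sum of the RA and DEAB effects was 1.57 ± 0.54 for cyp26c1.L and 1.64 ± 0.54 for cyp26c1.S at 0 h (adjusted p 0.0817 and 0.0719 by edgeR). It is positive where RA raised a gene by more than DEAB lowered it, and also where both groups lay above control. DEAB effects at 0 h were 0.07 (L) and 0.04 (S), so that sum holds no fall under DEAB. Control libraries of 0 h held 3 to 18 counts of cyp26c1.L and 5 to 21 of cyp26c1.S. At such counts a fall could hardly be seen, so the 0 h sum cannot well compare a rise with a fall. With the counts of both copies added before the fit the 0 h sum was 1.63 ± 0.48 and passed (adjusted p 0.0488 by edgeR). At 0 h 3.34% of genes were called higher in this comparison, so a call is not rare. In either direction 1284 genes were called, and 0 without clutch F. Without clutch B the S copy passed alone (1.98, adjusted p 0.0486 by edgeR). At 1.5 h the sums were 0.62 ± 0.51 for L and 1.15 ± 0.50 for S, and at 3 and 4.5 h they lay between 0.03 and 0.23, with 95% intervals reaching from -0.76 to 1.21. In the later comparisons 0%, 0% and 0% of genes were called higher with edgeR (at 1.5 h 2063 genes had an unadjusted p under 0.05 in either direction and DESeq2 called 5). RA and DEAB effects share their control libraries.

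**Figure D2:**
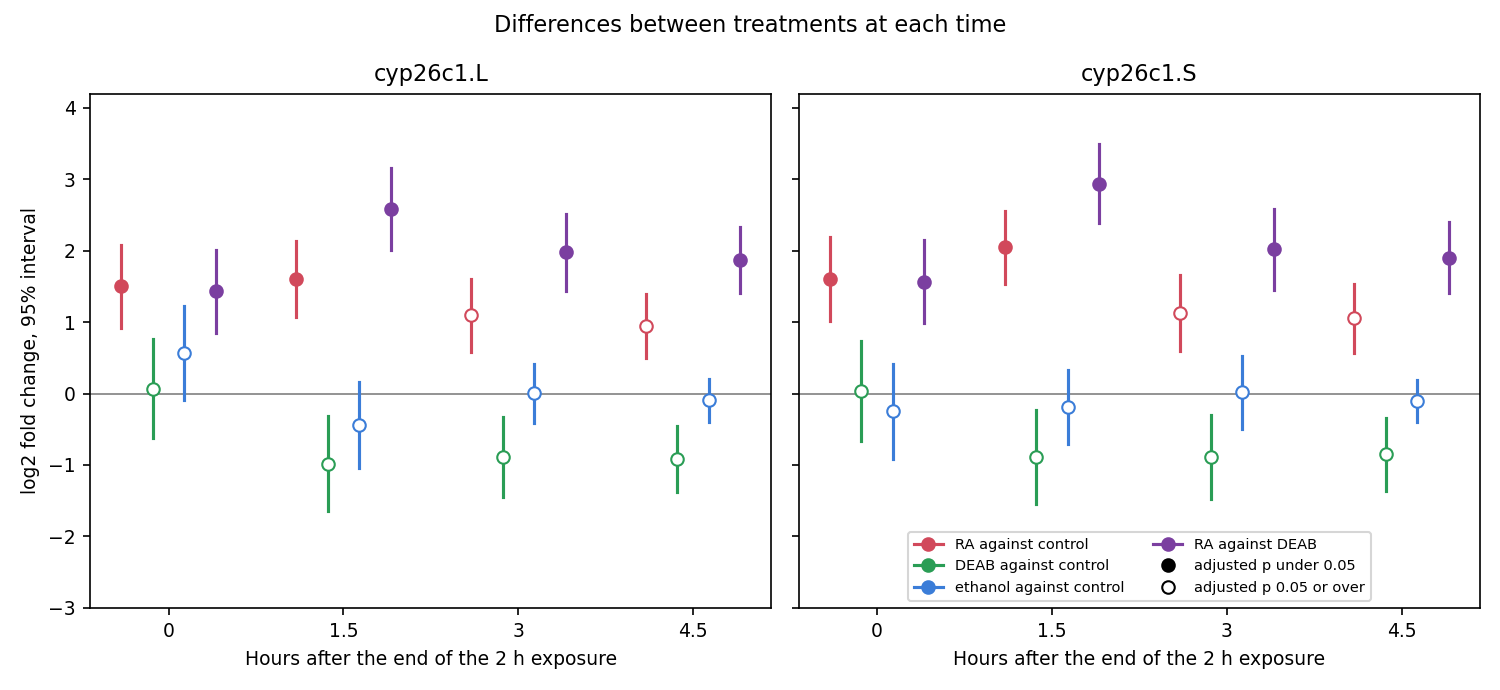
Log2 fold changes with 95% intervals for cyp26c1.L (left) and cyp26c1.S (right) against hours after the exposure, coloured by comparison, with filled points where the adjusted p was under 0.05. RA against DEAB is filled at all 4 times and largest at 1.5 h (2.59 and 2.94), RA against control is filled at 0 and 1.5 h, and DEAB and ethanol against control are open throughout.

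Ethanol did not move either homeolog past the threshold at any time. At 0 h the ethanol libraries held 0.126 to 1.74 CPM of cyp26c1.L (median 1.29) and 0.126 to 0.973 CPM of cyp26c1.S (median 0.755). The L copy was the higher by median and the S copy the lower, with log2 fold changes against control of 0.57 ± 0.30 and -0.25 ± 0.31. At 1.5 h the ranges were 1.06 to 12.5 CPM for L (median 3.09) and 0.796 to 8.50 for S (median 2.34), at 3 h 15.3 to 56.0 (median 37.6) and 8.76 to 44.6 (median 30.9), and at 4.5 h 50.6 to 98.0 (median 66.8) and 31.6 to 67.2 (median 55.5). The 95% interval at 4.5 h was -0.40 to 0.21 for L and -0.39 to 0.19 for S, which bounds a fall of cyp26c1.L to 0.76 times control. Ethanol against control called 2.89%, 0.065%, 0% and 0.00531% of all genes in either direction at the 4 times (at 3 h 901 genes had an unadjusted p under 0.05 and DESeq2 called 2).

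Against the ethanol libraries in place of control, RA libraries were again the higher. At 1.5 h the log2 fold change was 2.01 ± 0.28 for cyp26c1.L and 2.20 ± 0.25 for cyp26c1.S (adjusted p 8.44e-05 and 1.01e-05 by edgeR). At 0 h S was called (1.86 ± 0.27, adjusted p 0.000423 by edgeR), with no overlap of the libraries, as for 0.0504% of genes that were higher, and L was not (0.92 ± 0.27, adjusted p 0.101 by edgeR). At 3 h L was called (1.13 ± 0.24, adjusted p 0.0351 by edgeR) and S was not (1.13 ± 0.28, adjusted p 0.0902 by edgeR). At 4.5 h neither was, with 1.08 ± 0.22 and 1.22 ± 0.23. The share of genes called higher was 0.444%, 1.12%, 0.318% and 0.00497%. The 3 h call of L went without clutch C (1.09, adjusted p 0.118 by edgeR), D (0.92), E (1.12) or F (0.996), and S at 3 h passed without B (1.51). At 4.5 h L passed without A (1.27) and S without A (1.41) or B (1.44). DEAB against ethanol was called for neither copy at any time (1.1%, 0.384%, 0.0101% and 0.0746% of genes were called lower), and at 4.5 h was -0.80 ± 0.23 for L, which passed without clutch C (-0.91), and -0.70 ± 0.24 for S.

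Differences within clutches varied widely in size and course. At 4.5 h the RA library of clutch C held 244 CPM of cyp26c1.L against 44.0 in its control (5.54-fold), and clutch D 246 against 77.0 (3.20-fold). In clutches A and B the same comparison was 74.3 against 67.7 CPM (1.10-fold) and 74.8 against 65.2 (1.15-fold). At that time the RA libraries of C and D were thus far above their controls, and those of A and B were not. Each ratio rests on a single library per group, so differences between clutches and variation between libraries cannot be told apart. For cyp26c1.S the within-clutch log2 differences at 4.5 h were 2.66 in C and 1.99 in D against 0.26 in A and 0.06 in B. Clutch E was the most extreme under DEAB at 3 h, with cyp26c1.L at 5.71 CPM against 31.5 in control (0.181 times control). Its log2 difference at 0 h was 0.02, from 3 counts in each library, too few to show whether the level had changed.

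Tested over the 6 clutches alone, with all 64 exact sign flips, the RA difference of cyp26c1.L reached the smallest p the design allows, 0.03125, at every time (2-sided exact permutation test). So did that of cyp26c1.S at 0, 1.5 and 4.5 h, and that of L under DEAB at 1.5 h. Adjusted over the 24 comparisons of this kind these exact values are 0.0938, so that none passes. With 0.03125 as the smallest p, a comparison can pass after adjustment only if many others reach that p too. The lack of a pass therefore does not bear on the size of the differences. The mean RA difference of cyp26c1.L in log2 CPM was 1.34 ± 0.32 (SD, n = 6) at first and then 1.49 ± 0.88, 1.07 ± 0.85 and 0.97 ± 0.92. For cyp26c1.S it was 1.47 ± 0.63 and then 2.08 ± 0.94, 1.11 ± 0.96 and 1.08 ± 1.03. On this scale the means were highest at 1.5 h, and the SD was lowest at 0 h. The prior count of 2 in log2 CPM draws differences at the low counts of 0 h toward 0. As plain ratios of CPM, RA over control for cyp26c1.L was 2.02 to 4.05 at 0 h and 1.29 to 7.82 at 1.5 h. The order of these 2 times for L was not tested without the prior count.

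**Figure D3:**
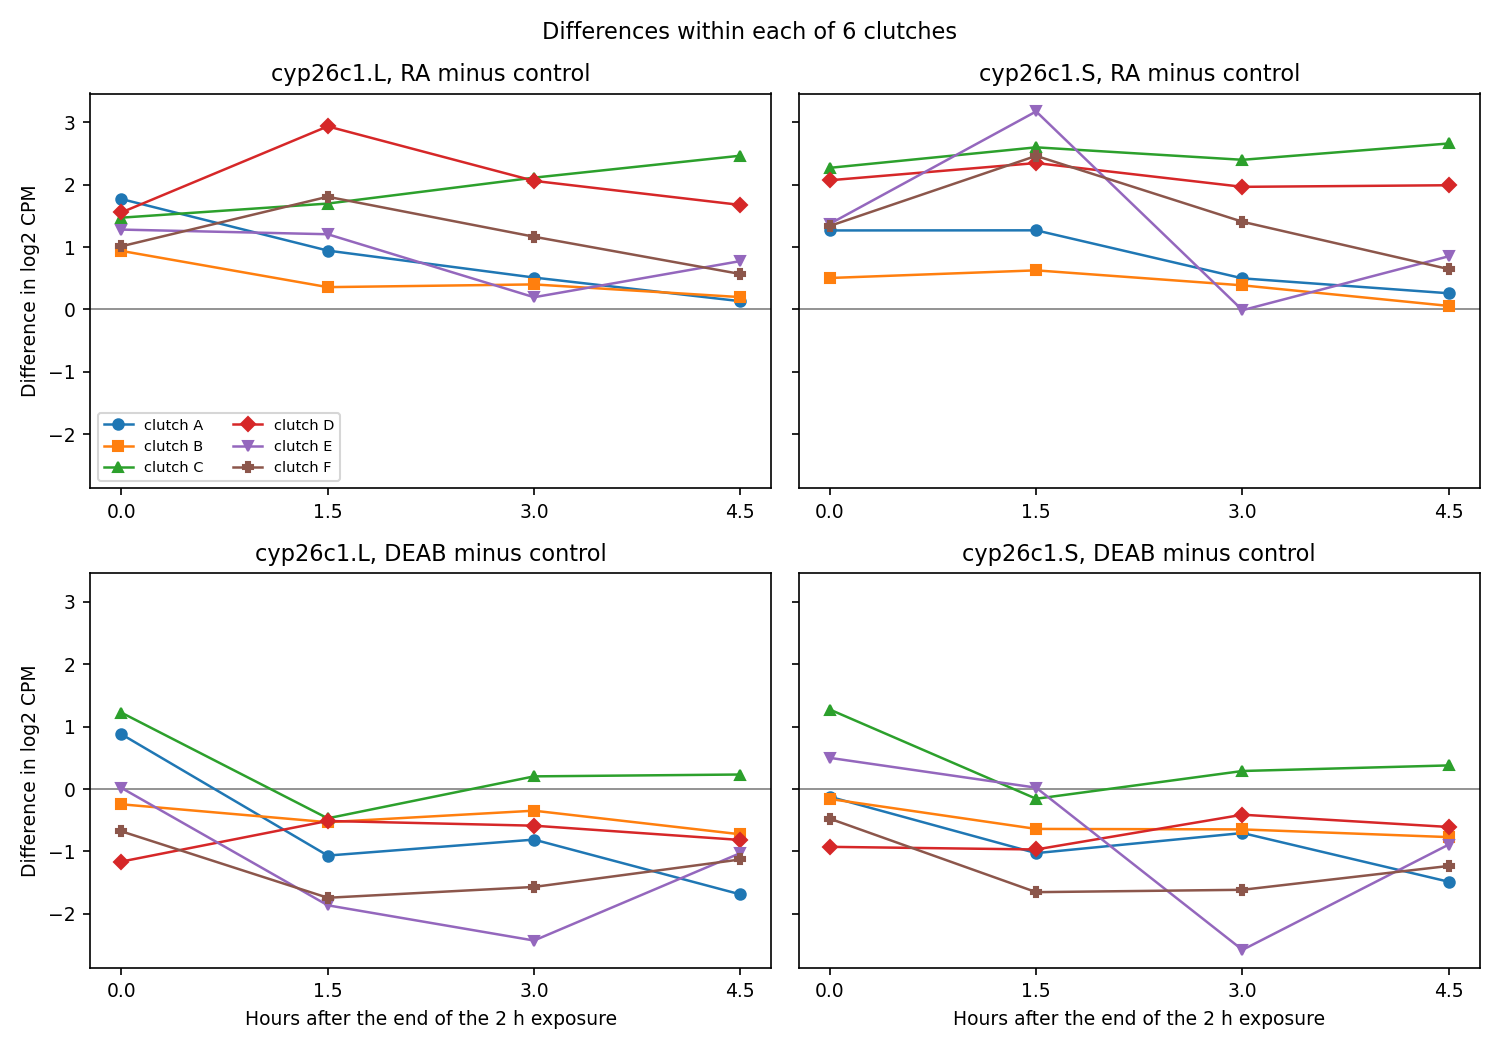
Difference in log2 CPM from the control library of the same clutch for RA (top) and DEAB (bottom), with 1 line per clutch over hours after the exposure, for cyp26c1.L (left) and cyp26c1.S (right). Under RA clutches C and D end at 2.46 and 1.68 for L while A and B end at 0.13 and 0.20, and under DEAB clutch C ends above 0 and the other clutches below.

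The labels give small differences of stage between clutches, and in several comparisons the control level of cyp26c1 was higher at the later stage. At 3 h clutches B and C were labelled stage 11.5 and the others stage 12. The highest control level of cyp26c1.L at stage 11.5 was 25.2 CPM and the lowest at stage 12 was 31.5, and for cyp26c1.S these were 19.2 and 23.3, so the stages did not overlap. At 1.5 h clutch A, the sole clutch labelled stage 11.5, had the highest control level of both genes. At 4.5 h L at stage 12 reached 65.2 CPM and at stage 12.5 was no lower than 67.7, while S overlapped. In the RA, DEAB and ethanol libraries of these times the stages overlapped, other than for S under DEAB at 1.5 h. How many of all genes separate by stage in this way was not counted. Each stage is a set of few clutches here, so stage and clutch cannot be told apart. The part of stage in the treatment differences was not tested, but the label was the same in all groups of a clutch.

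Set against the normal time course, RA at 0 h did not bring cyp26c1.L to the control level of the next sampling. It was below the 1.5 h control of its own clutch in 6 of 6 clutches, and RA at 1.5 h was below the 3 h control in 6 of 6. At 3 h the mean under RA was 88.5 CPM against 74.1 in the 4.5 h controls, with RA above in 2 of 6 clutches. For cyp26c1.S RA at 0 h was above the 1.5 h control in 3 of 6 clutches, at 1.5 h above the 3 h control in 0 of 6, and at 3 h above the 4.5 h control in 3 of 6. DEAB levels at 4.5 h, with means of 40.9 CPM for L and 33.2 for S, were above the 3 h control of the same clutch in 4 of 6 clutches. Ordered by mean, the 16 combinations of group and time ran from 0.768 CPM (DEAB at 0 h) to 157 (RA at 4.5 h) for L and from 0.689 (ethanol at 0 h) to 131 (RA at 4.5 h) for S. Every pair of neighbours in both orders had overlapping ranges.

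The balance of counts between the homeologs was near even at 0 h in control, RA and DEAB libraries, and favoured L at the later samplings. In control the L copy made up 46.7% ± 7.02 (SD, n = 6) of the counts of both at 0 h. At the later samplings it made up 66.8% ± 11.5, 57.7% ± 3.39 and 56.3% ± 5.21. The control library of clutch E at 1.5 h had 85.7%, from 36 counts of L and 6 of S. Under RA the shares were 45.1%, 56.8%, 57.1% and 54.5%, and under DEAB 46.6%, 62.9%, 58.1% and 54.8%. Under ethanol L held the larger share from the start, with 59.6% at 0 h (100 counts of L and 60 of S over the 6 libraries) and then 59.8%, 57.8% and 56.6%. These are shares of counts and not of transcripts, since the lengths of the gene models are not in the files. How the counting treated reads that fit both copies was not given in the sources used here, so part of the likeness of L and S can be shared reads.

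None of 12 tests of log2(L/S) between a treated and its control library passed (exact permutation test by sign flips over 6 clutches, adjusted p from 0.562 to 0.969). The smallest p this test can give is 0.03125, so a shift in a single comparison could not pass after adjustment. The largest differences were 0.63 ± 0.71 (SD, n = 6) for ethanol at 0 h, where L was relatively higher in 5 of 6 clutches, and -0.59 ± 0.84 for RA at 1.5 h, where it was lower in 5 of 6. Over time in control the ratio rose by 1.11 ± 0.96 from 0 to 1.5 h in 5 of 6 clutches. It then fell by 0.53 on the log2 scale to 3 h in 5 of 6. The exact p of the sign-flip test was 0.0625 for each, and 0.0938 after adjustment over 3 steps. Shifts at 1.5 h leaned on the control library of clutch E, with 36 counts of L and 6 of S. Without clutch E the RA difference at 1.5 h was -0.31, the control step to 1.5 h 0.80 and that to 3 h -0.29. With both copies added together, the calls were those of the single copies for RA at 0 and 1.5 h (1.57 ± 0.25 and 1.78 ± 0.23, adjusted p 0.00669 and 0.000416 by edgeR), and RA at 3 and 4.5 h stayed over the threshold (1.09 and 0.99, adjusted p 0.0935 and 0.167 by edgeR).

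**Figure D4:**
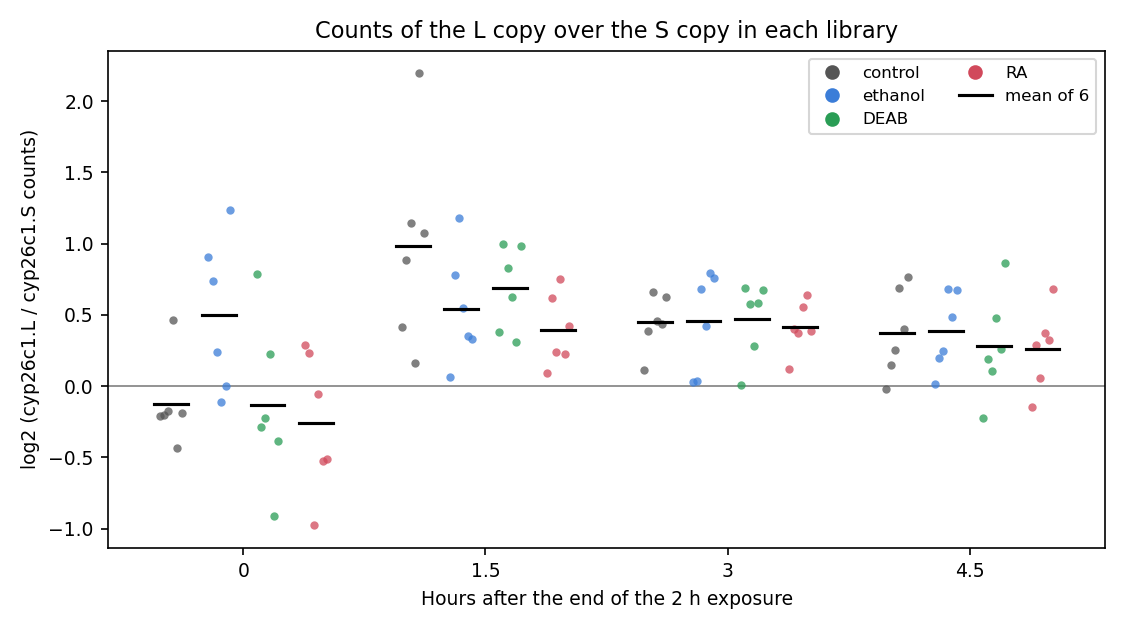
Log2 ratio of the counts of cyp26c1.L over cyp26c1.S in each library (prior count 2) against hours after the exposure, coloured by group, with a black bar at the mean of 6 clutches. Control means go from -0.12 at 0 h to 0.98 at 1.5 h and 0.37 at 4.5 h, and the groups overlap at each time.

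Within RA metabolism the genes called under RA were those of RA breakdown and 1 gene of retinaldehyde reduction. Of 19 other genes of the RA network with a symbol in the files, 3 rose under RA at 0 h (of 17 tested) and at 1.5 h (of 19 tested) and 0 fell, with a median log2 fold change of 0.03 and -0.04 beside 0.00 over all genes at both times. The 3 were cyp26a1.L and cyp26a1.S, which code for another CYP26 enzyme that breaks down RA, and dhrs3.L, whose product reduces retinaldehyde back to retinol. Over all genes 0.31% and 0.548% were called higher at 0 and 1.5 h. At 0 h cyp26a1.L rose by 2.09 ± 0.15 on the log2 scale and cyp26a1.S by 2.67 ± 0.15, from control means of 68.4 and 86.0 CPM. Both fell under DEAB (-0.65 ± 0.16 and -0.71 ± 0.16), in a comparison that called 0 genes without clutch D. There cyp26c1 was not called, but a DEAB library held 3 to 21 counts of L and 4 to 20 of S. The cyp26c1 intervals given above reach nearly as low as the falls of cyp26a1. By 4.5 h, where edgeR called 0 of 19750 genes, the RA differences were 0.55 and 0.61 for cyp26a1 and 0.36 for dhrs3.L, beside 0.95 and 1.05 for cyp26c1. cyp26a1.S was the 1 gene called in the RA interaction at 4.5 h, with a difference from the RA effect at 0 h of -1.999 ± 0.37 (adjusted p 0.03 by edgeR), against -1.49 ± 0.38 for cyp26a1.L and -0.49 and -0.48 for cyp26c1, none of them called. Whether the course of cyp26c1 differs from that of cyp26a1 was not tested.

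Genes of RA synthesis (aldh1a2.L, aldh1a3.L, retinaldehyde dehydrogenases) and of retinol oxidation (rdh10.L, rdh10.S, sdr16c5.L) were called against control at 0 of 4 times under RA or DEAB. Of the 2 synthesis genes, 1 to 2 were tested at a time. The list medians of synthesis and oxidation genes under RA lay between -0.18 and 0.07 and between -0.13 and -0.09. rdh10.S, which oxidises retinol, was lower under RA than under DEAB at 3 h (-0.28 ± 0.07, adjusted p 0.0375 by edgeR). Among uptake and binding genes (stra6.L, crabp2.L, crabp2.S) and the receptors rxra.S, rxrb.L, rxrb.S and rxrg.L none was called in these comparisons. dhrs3.L was called lower under DEAB at 0 h (-0.85) and 4.5 h (-0.86). The remaining retinaldehyde reduction genes, rdh13.L, rdh14.L and adhfe1.S, were not called, with 3 to 4 genes of this list tested at a time. Over all genes, RA against control called 0.537%, 0.655%, 0.16% and 0% in either direction at the 4 times. DEAB against control called 2.37%, 0%, 0.0361% and 0.263%, of which 1.21% and 0.253% were lower at 0 and 4.5 h. At 3 h 0.0825% were lower under RA than under DEAB. At such shares the lack of a call in lists this short says little.

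Of 8 hox genes described here, a part of the list of RA targets, 1 of 3 tested rose under RA at 0 h, 3 of 5 at 1.5 h and 0 of 8 at each later time. Under DEAB 2 of 3 fell at 0 h, 0 at 1.5 and 3 h, and 1 of 8 at 4.5 h, while 3 of 3, 5 of 5, 4 of 8 and 5 of 8 were higher under RA than under DEAB. Over all genes tested, 0.31%, 0.548%, 0.155% and 0% were called higher under RA at the 4 times. Shares called lower under DEAB were 1.21%, 0%, 0.0206% and 0.253%, and those higher under RA than DEAB were 0.439%, 0.982%, 0.887% and 0.724%. hoxa2.S rose under RA by 1.57 ± 0.27 at 0 h and by 1.21 ± 0.21 at 1.5 h (adjusted p 0.0128 and 0.00651 by edgeR), and hoxb1.S and hoxd1.L rose at 1.5 h by 1.26 ± 0.26 and 0.61 ± 0.12. Under DEAB hoxd1.L and hoxd1.S fell at 0 h (-1.53 ± 0.24 and -1.72 ± 0.25, adjusted p 0.0247 for each by edgeR) and hoxa2.S at 4.5 h (-0.85 ± 0.16, adjusted p 0.0254 by edgeR). These DEAB comparisons called 0 genes without clutch D (0 h) and without clutch B (4.5 h). At 4.5 h after RA, where edgeR called 0 of 19750 genes, the values were 0.19 ± 0.15 for hoxa2.S, 0.06 ± 0.15 for hoxb1.S and 0.07 ± 0.09 for hoxd1.L. Of 6 hindbrain markers 3 to 6 were tested at a time. Among them hoxb1.S, gbx2.1.L and meis3.L rose under RA at 1.5 h, and 4 and 5 were called higher under RA than DEAB at 3 and 4.5 h. meis3.L was lower under DEAB at 0 and 4.5 h. hoxb1.S is a hindbrain marker as well as a hox target here.

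Of 9 forebrain and midbrain markers 4 to 9 were tested at a time. Among them pax6.S rose under RA at 3 h, and rax.L, pax6.L and pax6.S fell under DEAB at 4.5 h, where the list median was -0.61. Neither treatment called any of 3 general neural plate markers or 7 organizer markers at any time. Among 7 epidermis markers krt12.L was called under DEAB (lower at 3 and 4.5 h), and among 8 mesoderm markers myf5.L and myf5.S (lower at 0 h). Of the 7 markers of early gastrula and the 7 of late gastrula to neurula stages, 5 to 7 of each were tested at a time. Those tested were called at 0 of 4 times under RA or DEAB, with medians under RA between -0.08 and 0.14 and between -0.27 and -0.08. Over all genes 0.155% were called higher under RA at 3 h, and 1.21%, 0.0206% and 0.253% lower under DEAB at 0, 3 and 4.5 h. In either direction RA called 0.537%, 0.655%, 0.16% and 0% of genes at the 4 times, and DEAB 2.37%, 0%, 0.0361% and 0.263%. At such shares 0 calls in lists this short say little about tissue or stage. RA at 3 h called 0 genes without clutch C. DEAB called 0 at 0 and 3 h without D, and 0 at 4.5 h without B.

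**Figure D5:**
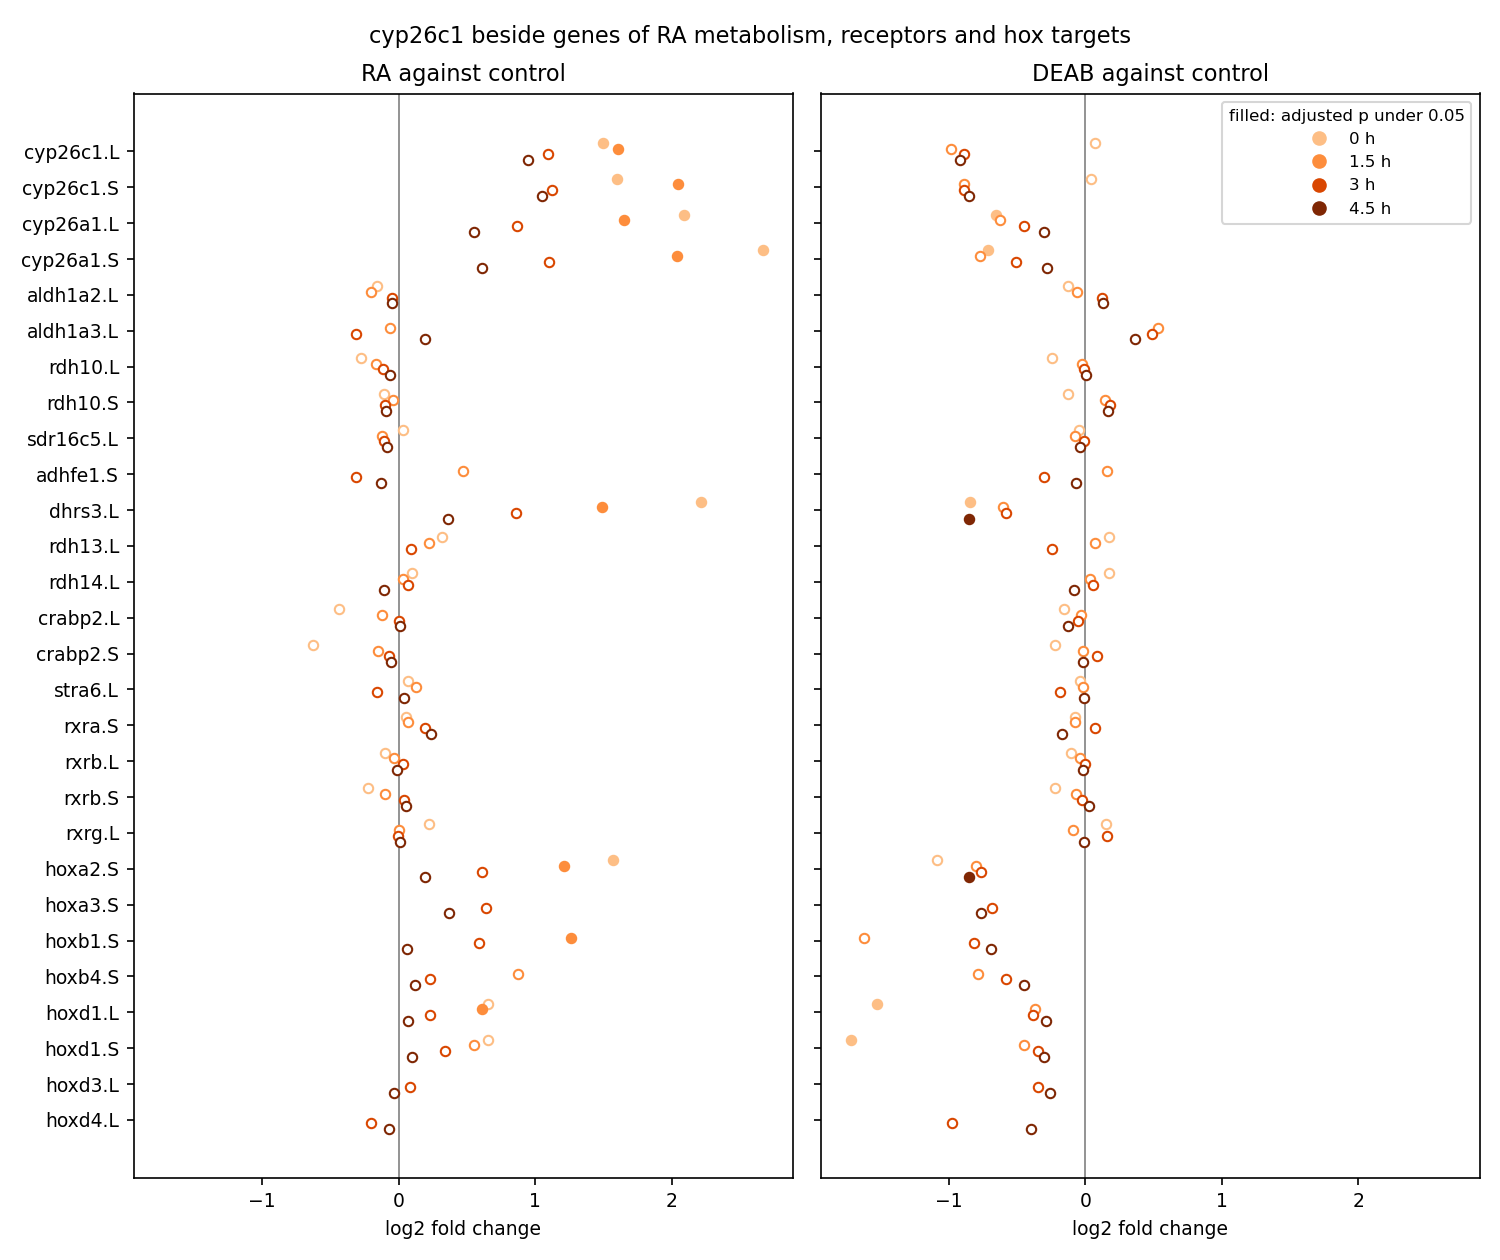
Log2 fold changes against control under RA (left) and DEAB (right) for RA network genes and hox targets, with 1 point per time, darker for later, and filled where the adjusted p was under 0.05. Filled points under RA at 0 h are those of cyp26c1, cyp26a1, dhrs3.L and hoxa2.S (1.50 to 2.67), and at 4.5 h no gene is filled under RA.

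The genes whose levels ran most like cyp26c1 were sought among 14818 genes with a symbol, by Pearson correlation over 96 libraries, with no test, since libraries share clutches and times. With the clutch mean taken off, which leaves time and treatment, the best partner of each homeolog was the other (r = 0.984), followed by nr6a1.S, the gene of an orphan nuclear receptor of early embryos (0.973 with L, 0.971 with S). The next for cyp26c1.L were map2k3, nr6a1.L, msi1.S, fbp1.S, LOC108702480 and slc27a3.L (0.961 to 0.968). For cyp26c1.S they were hoxb1.S (0.963), LOC108702480, slc27a3.L, emid1.L, hoxb4.S and fbp1.S (0.948 to 0.955). cyp26a1.L came 4064th for L (0.712) and 3968th for S (0.706).

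With the mean of the 4 libraries of a clutch and time taken off, which leaves the treatments alone, the order changed. The homeologs again matched each other (0.937) and then nr6a1.S (0.925 with L, 0.912 with S). For cyp26c1.L LOC108702480, cbfb.L, znf703.S, golm1.S, prph.L and map2k3 followed (0.840 to 0.883), and cyp26a1.L was 24th (0.805). For cyp26c1.S the next were cbfb.L, LOC108702480, cyp26a1.L (0.856, 5th), LOC108703560, znf703.S and nr6a1.L. Apart from cyp26a1.L, these genes were picked by how they followed cyp26c1 over the same libraries. Their changes under RA and over time are therefore partly built into the choice and are no separate support. Over all genes 0.31% and 0.548% were called higher under RA at 0 and 1.5 h. In the fits against control nr6a1.S rose under RA by 0.31 ± 0.05 at 0 h and 0.74 ± 0.11 at 1.5 h. Also called at 1.5 h were cyp26a1.L (1.65 ± 0.23), LOC108703560 (1.53 ± 0.22), prph.L (1.41 ± 0.18), cbfb.L (0.72 ± 0.15), LOC108702480 (0.66 ± 0.09), nr6a1.L (0.65 ± 0.12), znf703.S (0.64 ± 0.11), golm1.S (0.31 ± 0.06) and map2k3 (0.23 ± 0.05). Over the control series from 0 to 4.5 h nr6a1.S rose by 3.11 ± 0.13 and cyp26a1.L by 1.68 ± 0.20 on the log2 scale, beside 6.70 and 6.24 for cyp26c1.

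In the RefSeq annotation of assembly v10.1, used for gene order alone, cyp26c1.L and cyp26c1.S lie next to cyp26a1.L and cyp26a1.S on chromosomes 7L and 7S. On 7L aldh18a1.L comes before cyp26a1.L. hhex, a homeobox gene of endoderm and liver, lies on the far side, with 1 gene between, on both chromosomes. Neither hhex.L nor hhex.S was called under RA or DEAB at any time, and at 1.5 h they were at 0.00 ± 0.08 and 0.14 ± 0.10 under RA. aldh18a1.L, of proline synthesis, was at 0.09 ± 0.08. Over the control series hhex.L fell by 0.98, hhex.S by 0.48 and aldh18a1.L by 1.21 on the log2 scale, while cyp26c1 rose.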

How the data were processed

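Whole embryo RNA was sequenced by the authors, aligned with STAR to the Xenopus laevis 9.1 genome and counted per gene with verse; the deposited counts are not normalized. The deposited log2 values of 72 libraries (without ethanol) are the authors' regularized log (DESeq2) of the counts, followed by ComBat and quantile normalization. Symbols come from that table, in which 14819 of 16322 genes have one. The files give gene numbers without coordinates or sequence. cyp26b1 was not analysed here.

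Counts were tested with edgeR 4.0.16 (R 4.3.3): TMM, filterByExpr, a clutch block, and p adjusted by Benjamini-Hochberg over all genes tested, in fits of 18 (RA, DEAB, control), 12 (ethanol, control) or 24 libraries per time, 24 control libraries for time and 72 for interactions. Each SE was obtained by dividing the log2 fold change by the root of the F statistic. Levels are CPM with TMM factors over all 96 libraries, and log2 CPM has a prior count of 2. Libraries of a clutch deviated together from their group means in all 144 pairs (correlations 0.496 to 0.867), and the pairing comes from their being eggs of 1 female. The edgeR and sign-flip scripts were tested on simulated data. Alternatives were DESeq2 1.42.0 (no adjusted p for 10 member comparisons), no filter, no block, other sets of libraries, limma 3.58.1 on the deposited log2 values, a prior count of 0.5 and leaving out each clutch.

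Named genes are the members, RA network, hox and marker lists, neighbours, and the 8 genes most like each member by 2 correlations; some genes of the RA network and hox lists, and the endoderm list, are not reported here. Members and lists were chosen with earlier results of these data known. Apart from the fits without a clutch block, every p measures how differences within clutches varied over these 6 clutches. In edgeR the estimate of that variation draws on all genes tested. The fits of 72 libraries do not pair libraries of the same clutch and time, so shifts of a clutch at a time enter their error. Counting error, without molecular identifiers, is not given separately.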

Additional observations from a re-analysis of the deposited data

Results flagged for a closer look

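In 72 groups of 6 libraries the lowest or highest value was compared with its nearest neighbour, and 3 stood apart from the other 5 by more than Dixon's criterion for 6 samples allows, where chance gives about 1 in 20 groups, so this number is no more than chance gives. Under DEAB at 4.5 h cyp26c1.L was lowest in clutch A, with a log2 CPM of 4.40 (20.9 CPM) against 5.31 in the next library. In ethanol at 0 h cyp26c1.S was lowest in clutch E, with -1.75 (0.126 CPM) against -0.46. In control at 0 h the log2 ratio of L to S counts was highest in clutch D, with 0.46 against -0.18 in the next.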

How the results depend on the processing

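Values are log2 fold changes by edgeR with the clutch block unless another fit is named, and the cause of a changed call was not tested. Without the replicate block RA against DEAB at 4.5 h was the sole comparison between groups that still called cyp26c1 (both copies). RA against control was then 1.49 (L) and 1.57 (S) at 0 h and 1.79 and 2.00 at 1.5 h, RA against DEAB 1.49 and 1.58, 2.74 and 2.97, and 2.11 and 2.06 at 0, 1.5 and 3 h, RA against ethanol 1.83 (S, 0 h), 2.04 and 2.13 at 1.5 h and 1.27 (L, 3 h), and the control step from 3 to 4.5 h 1.11 for S, while DEAB against control at 0 h turned to -0.00113 and -0.00942. At 0 h RA against control was not called in the single fit of 72 libraries (1.50 and 1.59) or by limma on the deposited log2 values (0.376 and 0.490), nor was RA against DEAB (1.40 and 1.52, and 0.378 and 0.486). The limma fit of 72 libraries had no clutch block. The regularized log draws differences at low counts together, so limma values are not on the scale of the edgeR ones. For cyp26c1.L at 1.5 h RA against control missed the threshold in both (1.58 and 0.798), and limma put DEAB at 0 h at -0.00252. With no filter on low counts calls were gained for RA against control at 3 h (1.09 and 1.12) and 4.5 h (0.952 and 1.06), DEAB against control at 3 h (-0.888 and -0.895) and 4.5 h (-0.922 and -0.851), RA against ethanol at 3 h (S, 1.13) and 4.5 h (1.08 and 1.22), and the RA rise against the DEAB fall at 0 h (S, 1.62), which all 24 libraries also called (1.63). DESeq2 called RA against ethanol at 4.5 h for S (1.22). Ethanol against control at 3 h, which is near 0, turned to -0.00557 (L, no filter), -0.0203 (L, all 24 libraries), and -0.00183 and -0.00306 (L and S, DESeq2).

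Leaving out 1 clutch gave these lowest and highest values for L and for S. RA against control at 0 h was 1.39 to 1.64 and 1.43 to 1.87, and at 3 h 0.869 to 1.28 for L. RA against DEAB at 0 h was 1.14 to 1.68 and 1.28 to 1.76. DEAB against control was -0.209 to 0.3003 and -0.261 to 0.163 at 0 h and -1.10 to -0.757 and -1.05 to -0.698 at 4.5 h. The RA rise against the DEAB fall was 1.18 to 1.98 (S) at 0 h, -0.150 to 0.653 and -0.160 to 0.734 at 3 h, and -0.424 to 0.370 and -0.287 to 0.535 at 4.5 h. Ethanol against control was -0.438 to 0.184 (S) at 1.5 h, -0.147 to 0.183 and -0.207 to 0.253 at 3 h, and -0.192 to 0.102 and -0.205 to 0.0647 at 4.5 h. RA against ethanol was 0.924 to 1.41 and 0.919 to 1.51 at 3 h and 0.870 to 1.27 and 0.985 to 1.44 at 4.5 h, and DEAB against ethanol -0.932 to -0.621 (L) at 4.5 h. The RA effect of L at 1.5 h against 0 h was -0.250 to 0.433. For log2(L/S), RA against control was -0.260 to 0.000579 at 0 h and -0.0805 to 0.0183 at 3 h, DEAB against control -0.211 to 0.0858, -0.444 to 0.0245 and -0.0344 to 0.0608 at 0, 1.5 and 3 h, and ethanol against control -0.0638 to 0.0793 and -0.00139 to 0.0330 at 3 and 4.5 h.

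Counts of genes called moved by more than 1.5 times. RA against control called 104 genes at 0 h with edgeR, 728 with no filter, 3 without the block, 450 with all 24 libraries, 12 in the single fit, 13 by limma and 432 by DESeq2. At 1.5 h it called 128, against 319, 1, 33 and 50 with no filter, without the block, in the single fit and by limma. DEAB against control called 460 at 0 h, against 1220, 0, 1205, 0, 8 and 1012, and 52 at 4.5 h, against 217, 0, 81, 1, 17 and 132, in the order given for RA at 0 h. RA against DEAB called 90, 204, 188 and 161 at the 4 times, against 138, 345, 326 and 292 with no filter and 6, 8, 2 and 2 without the block. Leaving out 1 clutch gave 17 to 541 calls for RA against control at 0 h and 0 to 2563 for DEAB against control (lowest without D and highest without C in both), 39 (without F) to 163 for RA at 1.5 h, and 0 (without B) to 290 (without C) for DEAB at 4.5 h. For RA against DEAB it gave 43 to 124, 134 to 229, 84 to 204 and 71 to 166. The 0 h libraries held 2 to 52 counts of each gene.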

Other observations

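The share of the L copy in the counts of both homeologs was looked at by clutch. At 4.5 h the 4 libraries of clutch A, which had different treatments, lay between 46.1% and 50.3% L, those of clutch B between 52.5% and 54.95%, those of clutch C between 50.9% and 54.3%, those of clutch E between 54.6% and 58.4%, those of clutch D between 56.4% and 61.7%, and those of clutch F between 61.6% and 64.7%. Clutch A did not overlap any of the others, and 3 of its 4 libraries were under 50%. At 3 h clutch A was again the lowest by mean (51.2%, against 56.6% to 60.6% in the others), and at 1.5 h too (54.2%, against 59.1% to 65.4%). At 0 h, with few counts, its mean was the highest, 58.6%. These are values with no test, and what lies behind them was not tested.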
